A study of Mus musculus with 4 samples.

Results

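Axon guidance genes encode the semaphorins, slits, netrins and ephrins, which steer growing axons, and their receptors, the plexins, neuropilins, Robo, Unc5 and Eph proteins. The genes described here were chosen by name: every probe that is not a control and whose gene name in the scanner files is a class 3 to 7 semaphorin (Sema), a plexin (Plxn), Nrp1 or Nrp2, an Eph receptor, an ephrin (Efn), a netrin (Ntn), Slit1 to Slit3, Robo1 to Robo4 or Unc5a to Unc5d. The rule found 96 of the 55681 probes of the array, which name 68 of the 23629 genes with a symbol. Of these, 65 genes were measured, and 3 (Epha8, Ephb1 and Sema4a) were left out because none of their probes stood well above background on 3 or more arrays in either channel.

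The study hybridised 4 two-colour arrays. On each, RNA labelled as primary odontoblast, from dental pulp, was in the Cy5 channel, and RNA labelled as calvarial osteoblast, from calvarial bone, was in the Cy3 channel. Both channels came from mice 2 weeks old that carried EGFP under a 2.3 kb type I collagen promoter; the label for the pulp channel gives the strain as C57BL/6. Pulp and bone were matched by donor, digested with enzymes and sorted for GFP, so the cells of both channels were those in which this promoter drove the transgene, and any other GFP-positive cell of the tissue would be in the sort too. How many animals lie behind an array is not stated, so the p-values reflect only how far these 4 arrays spread. No array had the dyes exchanged, so a dye effect and a difference between the cell sources cannot be told apart. A difference in RNA per cell and a difference in the share of cells that express a gene cannot be told apart either.

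The labelled cell types were checked against listed markers, and all of those that passed the test lay opposite to the labels. All 6 listed odontoblast genes had mean log2 ratios (Cy5 over Cy3) below 0, toward the channel labelled osteoblast, with a median of -2.50. The test was passed by 3 of them, Wnt10a, Bmp7 and Sall1, and not by Dspp, Nes and Dmp1. Dspp, which encodes the main dentin phosphoprotein, had -1.95 (adjusted p = 0.0602, limma), Nes, the odontoblast intermediate filament nestin, -2.00, and Dmp1, a matrix phosphoprotein of dentin and bone, -1.71. All 10 listed osteoblast genes had means above 0, with a median of 2.23, and 4 passed the test (Ifitm5, Col1a2, Phospho1 and Pth1r). Sp7 (0.015), Alpl (0.05) and Bglap (1.34) had both signs over the arrays, and the means of Sp7 and Alpl were close to 0. Ifitm5, a membrane protein of bone-forming osteoblasts, had 5.05 (adjusted p = 0.0167, limma), and the collagen genes Col1a2 and Col1a1 had 2.79 and 1.80. Channels are therefore named below by dye, and if the labels were exchanged, Cy3 would be the pulp channel. The sign of a ratio as Cy5 over Cy3 does not depend on this.

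Semaphorins are secreted, membrane-bound or lipid-anchored ligands that bind plexins, and the secreted class 3 members mostly do so with a neuropilin as co-receptor. Slits bind Robo receptors, and netrins bind Dcc, neogenin and the Unc5 receptors. Ephrins are held on the surface of a neighbouring cell and bind Eph receptor tyrosine kinases. In teeth and bone these proteins are known for guiding sensory nerves and vessels, and some act between osteoblasts and osteoclasts.

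The sequences that carry the calls were as follows. Each array probe is 60 bases long, and the 30 bases at its 5′ end are shown as deposited, for the 5 genes whose ratio passed the test and for both probes of Plxna2, which gave opposite signs. Positions are of the whole probe in mouse build mm9, from the scanner files, with its strand.
Sema3c, chr5:17234078-17234137, + strand: acgtaaagtcaagagtgactcataaagagc
Plxnd1, chr6:115905315-115905374, - strand: agggaatttctgcttcagccaccaagcagt
Sema7a, chr9:57810607-57810666, + strand: tcccttatctcttctcaatgcactttaata
Slit2, chr5:48696673-48696732, + strand: gggagggtgggagaagaaagactgttatgt
Ephb2, chr4:136211203-136211262, - strand: accagatccagtctgtagaggtttgacatt
Plxna2, brighter probe, chr13:82317719-82317778, + strand: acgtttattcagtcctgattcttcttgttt
Plxna2, other probe, chr1:196642958-196643017, + strand: catgtacctattgtaaatatgaaactccta

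The 65 genes did not move as a group toward either channel. After background correction and loess normalization, 5 of them passed the test (limma, Benjamini-Hochberg adjusted p under 0.05 over 37375 features), where a feature is a gene or a probe without a gene symbol. Sema3c, Plxnd1 and Sema7a were higher in Cy3, and Slit2 and Ephb2 were higher in Cy5. Over all features 1.66% passed, 1.01% toward Cy5 and 0.653% toward Cy3, and over the 19401 named genes 2.17% passed, 1.29% toward Cy5 and 0.876% toward Cy3. With median centring in place of loess 12 members passed toward Cy5 and 3 toward Cy3, and the median of all features was then 0.16. The share of all features that passed under median centring was 6.7%, with 5.63% toward Cy5 and 1.07% toward Cy3.

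The median log2 ratio of the 65 genes was 0.06, against -0.00 for all features, with 33 genes above 0 and 32 below. Their ratios were wide in both directions: the median absolute log2 ratio was 0.68, against 0.32 for all features. A mean ratio of at least 2-fold in either direction was found in 23 of 65 genes, against 10.2% of all features and 12.5% of named genes. A ratio of the same sign on all 4 arrays was found in 31 genes, 17 toward Cy5 and 14 toward Cy3, against 30.5% of all features (15.7% and 14.8%) and 31.4% of named genes. With the other probe of Plxna2 the count was 30, with 13 toward Cy3.

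**Figure D1:**
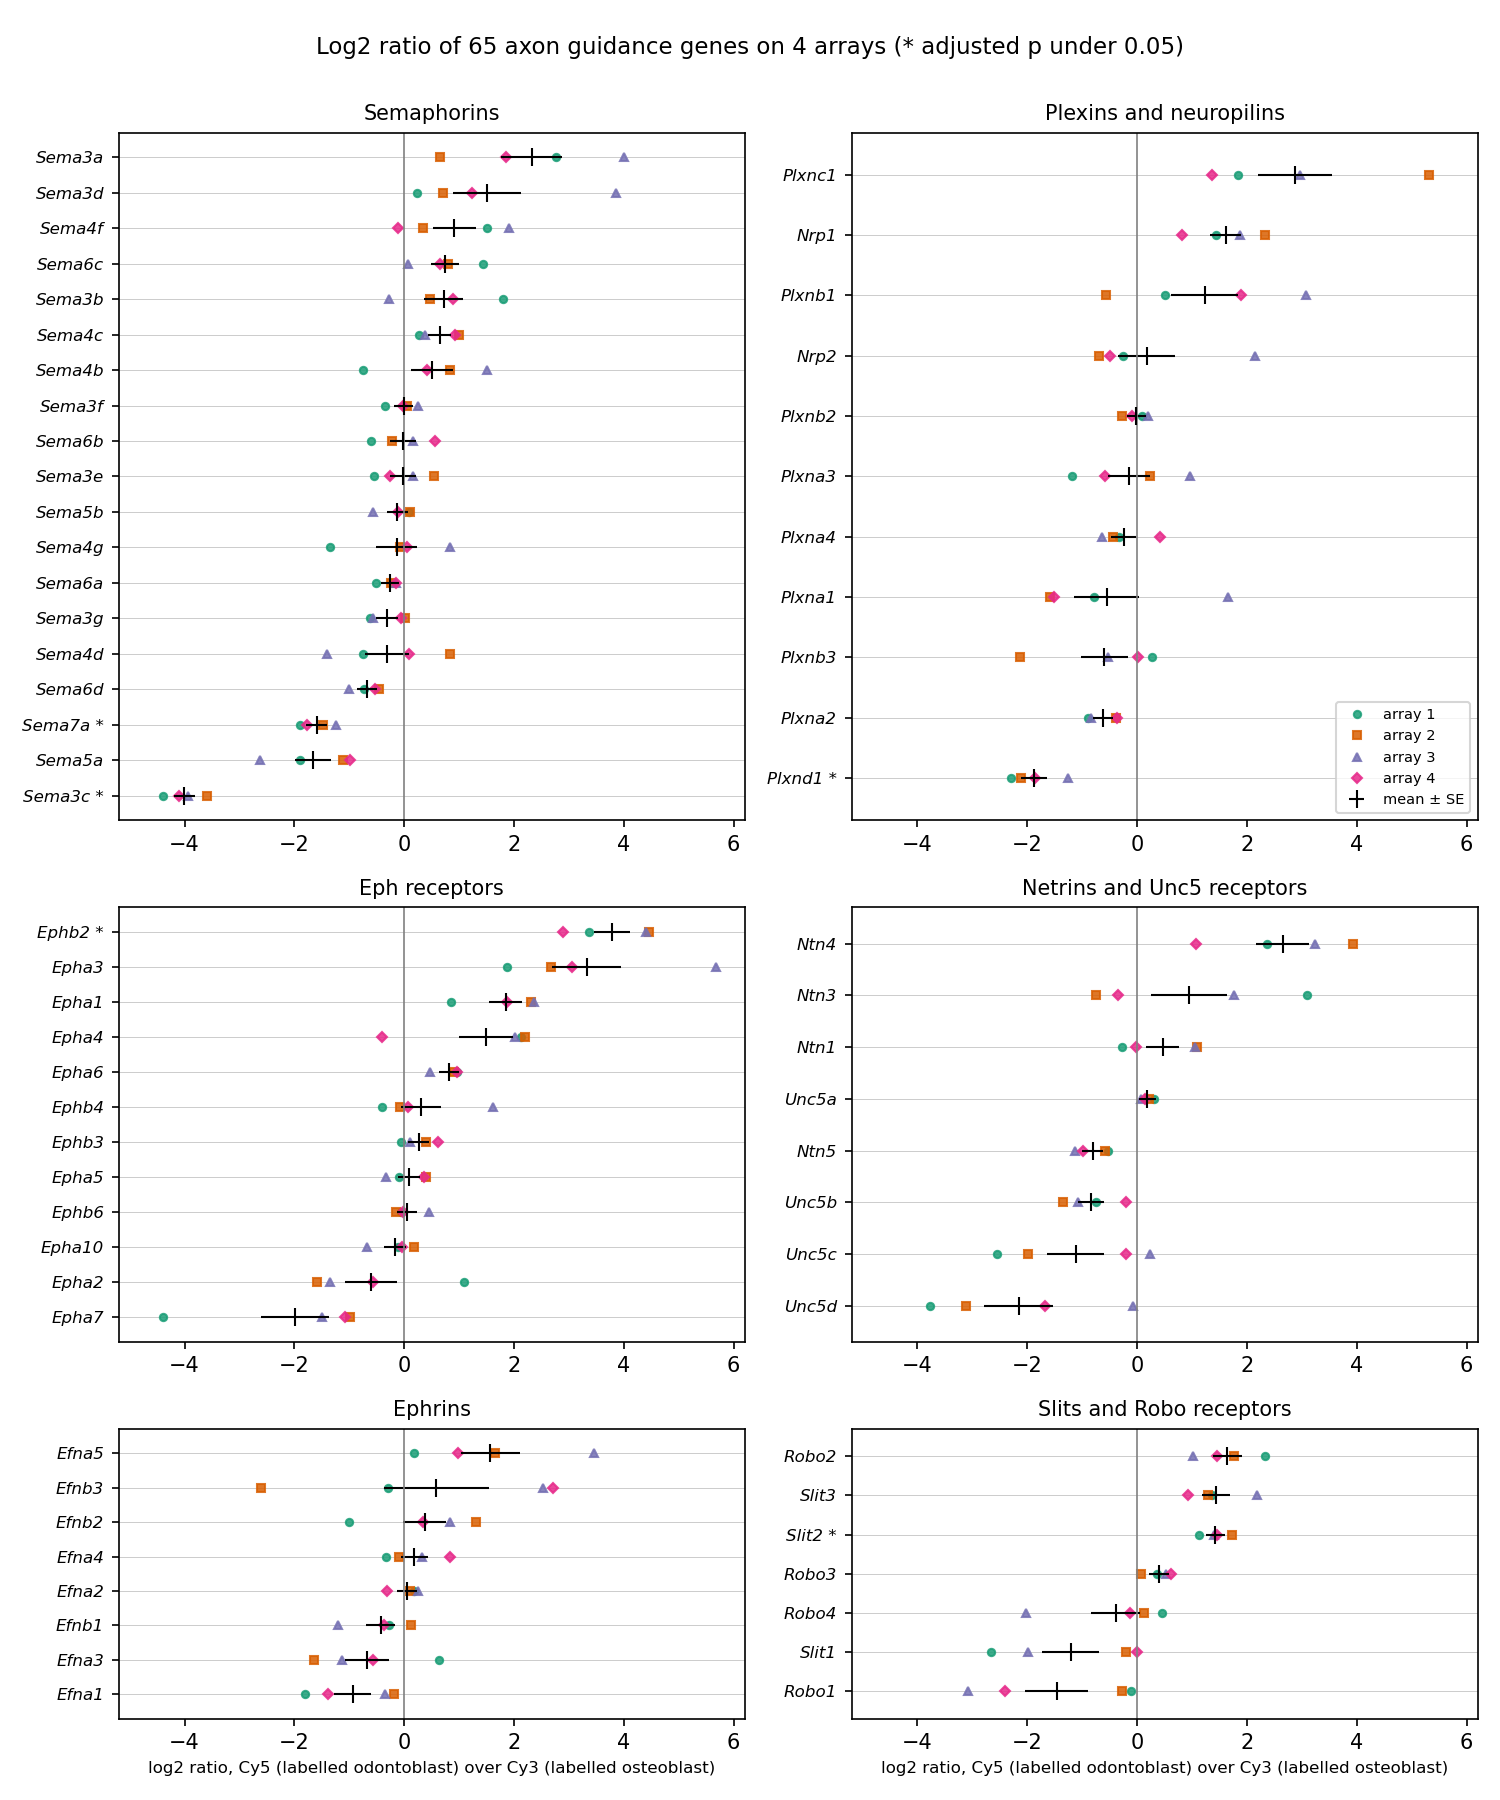
The log2 ratio of Cy5 over Cy3 is plotted for each of the 65 measured axon guidance genes, grouped by family, with 1 small point per array and the mean over 4 arrays. Genes of the same family lie on both sides of 0, and Sema3c (mean -4.0) and Ephb2 (mean 3.78) are the farthest from 0 among the genes that passed the test.

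Among the semaphorins, 2 of 19 measured genes passed the test and both were higher in Cy3. Sema3c encodes a secreted semaphorin that guides neurons and vascular and neural crest cells. Its log2 intensity in Cy5 was 8.30, 9.43, 8.91 and 8.40 on arrays 1 to 4, and in Cy3 12.68, 13.02, 12.85 and 12.49. The lowest Cy3 value was above the highest Cy5 value, so the channels did not overlap. The ratio was -4.0 ± 0.20 on the log2 scale (SE, n = 4), which is 16-fold higher in Cy3 (adjusted p = 0.00578, limma), and every array lay between -4.38 and -3.58. A second Sema3c probe gave -3.47 and also passed.

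Sema7a encodes a semaphorin held in the membrane by a lipid anchor, with plexin C1 and integrin β1 as known receptors. Its Cy5 log2 intensity was 8.65, 7.53, 6.42 and 7.42 on arrays 1 to 4, and its Cy3 log2 intensity was 10.55, 9.01, 7.66 and 9.19. Levels differed between arrays so much that the channels overlapped across arrays, but Cy3 was higher on each array, with ratios of -1.90, -1.47, -1.23 and -1.77. The mean was -1.60 ± 0.19 (SE, n = 4), or 3.02-fold higher in Cy3 (adjusted p = 0.0312, limma). The probe was well above background in Cy5 on 3 of the 4 arrays.

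The other 17 semaphorins did not pass, and their means ran on both sides of 0. Sema3a, the secreted semaphorin best known for repelling sensory axons and for acting on bone cells, had log2 ratios of 2.77, 0.65, 4.01 and 1.85. All 4 were positive, but they spread over more than 3 log2 units, and the mean of 2.32 had an adjusted p of 0.126 (limma). Its second probe gave 0.70. Sema5a, a transmembrane semaphorin with thrombospondin repeats, had -1.90, -1.12, -2.63 and -0.99, and its mean of -1.66 had an adjusted p of 0.0868 (limma). Sema3d, another secreted member, had a mean of 1.51 that array 3 carried: the ratio there was 3.85, and the mean without array 3 was 0.73. The median over the family was -0.02, and it turned to 0.18 with median centring.

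Among the plexins and neuropilins, Plxnd1 was the only one of 11 genes to pass the test. Plexin D1 is the receptor for Sema3e and, with a neuropilin, for Sema3c, and is known from endothelial cells. Its Cy5 log2 intensity was 10.56, 10.36, 10.27 and 10.74, and its Cy3 log2 intensity was 12.86, 12.48, 11.52 and 12.59. The channels did not overlap, and the difference was smallest on array 3. The mean ratio was -1.88 ± 0.23 (SE, n = 4), or 3.68-fold higher in Cy3 (adjusted p = 0.0325, limma). A second Plxnd1 probe was lower in Cy5 too, at -0.81, but did not pass (adjusted p over probes = 0.228, limma).

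Endothelial markers were not called in either channel. Of 12 listed endothelial genes 10 were measured, none passed the test in either direction, and their median log2 ratio was 0.13. Means were above 0 for 6 genes and below 0 for 4, among them Pecam1 at -1.04, with -4.33 on array 3. The summed intensity of the list ran from 8739 to 12656 in Cy5 and from 8826 to 10648 in Cy3 over the arrays, so the channels overlapped. The brightest genes in this sum were Eng (0.84) and Kdr (0.13). The part of endothelial cells in the Plxnd1 ratio was not tested.

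Plxnc1, the receptor for Sema7a, lay toward Cy5, opposite to its ligand. Its ratios were 1.84, 5.32, 2.97 and 1.37, positive on every array but far apart, and the mean of 2.88 ± 0.67 (SE, n = 4) had an adjusted p of 0.123 (limma). The second Plxnc1 probe gave 2.48 ± 0.23 with less spread and passed among probes (adjusted p over probes = 0.017, limma). Of 11 macrophage and leukocyte markers, 8 had means toward Cy5 and 3 toward Cy3, with a median of 1.37. Laptm5 and Lyz2 passed, both toward Cy5. Those toward Cy3 were Csf1r (-0.39, below 0 on every array), Cd68 (-0.10) and Cd14 (-0.05). The brightest marker of the list, Itgam, was at 0.17. Their summed intensity was 117547 to 196473 in Cy5 and 78206 to 110228 in Cy3, all 11 genes were well above background in both channels, and their part in the Plxnc1 ratio was not tested.

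Nrp1, the neuropilin that serves both Sema3a and VEGF, had log2 ratios of 1.43, 2.33, 1.87 and 0.82. The mean of 1.61 did not pass (adjusted p = 0.0716, limma), although all arrays were on the same side. Nrp2 was at 0.18, with 2.16 on array 3 and between -0.70 and -0.26 on the others. A second Nrp2 probe gave -0.20 and was below 0 on every array, so the side of Nrp2 depends on the probe. By the brightest probes, both neuropilin means were above 0, 7 of 9 plexin means were below it, and the plexin median was -0.24. Among the plexins, Plxnb2 lay at -0.02, and Plxna4 at -0.24 had 0.50 on its other probe. The Plxna2 value is uncertain, because its probes gave opposite signs. With its other probe, 6 of 9 plexin means were below 0 and the median was -0.15.

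In the slit and Robo system, Slit2 was the 1 gene of 7 measured that passed the test, and it was higher in Cy5. Slit2 encodes a secreted repellent of axons. Its Cy5 log2 intensity was 10.51, 10.64, 10.31 and 10.68, against 9.38, 8.92, 8.92 and 9.22 in Cy3. The channels did not overlap and the ratios of 1.13, 1.73, 1.39 and 1.46 were close together. The mean was 1.43 ± 0.18 (SE, n = 4), or 2.69-fold higher in Cy5 (adjusted p = 0.0343, limma).

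Slit3, which osteoblasts and osteoclasts are known to secrete in bone, had ratios of 1.36, 1.29, 2.19 and 0.93. Its mean of 1.44 was as large as that of Slit2, but the arrays spread more and it did not pass (adjusted p = 0.0701, limma). Slit1 lay the other way, at -2.66, -0.20, -1.98 and -0.0047, with a mean of -1.21 (adjusted p = 0.283, limma). Arrays 1 and 3 gave nearly all of that difference.

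Robo2, a receptor for Slit2, had ratios of 2.33, 1.77, 1.02 and 1.45, with a mean of 1.65 (adjusted p = 0.0545, limma). Its 3 probes ran from 0.98 to 1.99, so all were toward Cy5. Robo1 lay toward Cy3 with -0.10, -0.28, -3.08 and -2.41, a mean of -1.47 (adjusted p = 0.259, limma) that came from arrays 3 and 4. This probe was well above background in Cy5 on 2 arrays and in Cy3 on 3, so it was kept through the channel in which it is brighter and its mean is uncertain. The second Robo1 probe gave -1.06, -1.69, 0.12 and -0.53, with a mean of -0.79, so its difference lay on arrays 1 and 2 instead. Robo4, the member typical of endothelium, was at -0.39, with -2.03 on array 3 and between -0.12 and 0.46 on the others.

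None of the 4 netrins and none of the 4 Unc5 receptors passed the test. At an unadjusted p under 0.05, 27 of the 65 members were counted, against 19% of all features and 21.2% of named genes, and 4 of these 27 were netrins or Unc5 receptors. Ntn4, a netrin of basement membranes, had ratios of 2.36, 3.93, 3.25 and 1.07, with a mean of 2.65 (adjusted p = 0.0765, limma). Ntn5 lay toward Cy3 on every array, with -0.52, -0.59, -1.13 and -0.99, and a mean of -0.81 (adjusted p = 0.126, limma).

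The Unc5 genes, which encode repulsive netrin receptors, had 3 of 4 means toward Cy3 and a median of -0.98, which stayed below 0 under all alternatives run. Unc5d had -3.78, -3.12, -0.07 and -1.67, so array 3 showed almost no difference, and the mean was -2.16 (adjusted p = 0.174, limma). Unc5b had -0.74, -1.35, -1.07 and -0.20, with a mean of -0.84 (adjusted p = 0.169, limma). Unc5c had -2.55 and -1.99 on arrays 1 and 2 but 0.24 and -0.20 on arrays 3 and 4. Its second probe gave -1.44, -1.20, 2.84 and -1.55, with a mean of -0.34, so the probes differed on arrays 3 and 4.

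Of the 12 Eph receptors measured, Ephb2 passed the test, and none of the 8 ephrins did. EphB2 is a receptor tyrosine kinase for the transmembrane ephrin-B ligands. Its Cy5 log2 intensity was 13.73, 13.43, 13.44 and 13.58, against 10.36, 8.96, 9.03 and 10.68 in Cy3. The Cy5 values were close together and far above every Cy3 value, and the spread of the ratios came from Cy3, where arrays 1 and 4 were higher than arrays 2 and 3. The ratios were 3.37, 4.47, 4.40 and 2.90, with a mean of 3.78 ± 0.33 (SE, n = 4), or 13.8-fold higher in Cy5 (adjusted p = 0.0159, limma).

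The ephrin-B genes, which encode ligands of EphB2, showed smaller means. Efnb1 was at -0.43 and Efnb2 at 0.37. Efnb3 had a mean of 0.59 that hid opposite arrays, with -0.30 and -2.61 on arrays 1 and 2 and 2.54 and 2.71 on arrays 3 and 4. Efna5, a lipid-anchored ephrin that binds EphA receptors and EphB2, had 0.18, 1.66, 3.45 and 0.99, with a mean of 1.57 (adjusted p = 0.216, limma). Efna1 lay toward Cy3 on all arrays, with -1.81, -0.18, -0.36 and -1.39, and a mean of -0.94 (adjusted p = 0.226, limma).

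Among EphA receptors, Epha3 had the largest mean ratio toward Cy5, with arrays at 1.87, 2.68, 5.68 and 3.05. Its mean of 3.32 did not pass (adjusted p = 0.0821, limma), and without array 3 it was 2.54. Epha1 had 0.85, 2.31, 2.37 and 1.87, with a mean of 1.85 (adjusted p = 0.0613, limma). Epha4, a receptor that binds ephrins of both classes, was near 2 on arrays 1 to 3 (2.13, 2.19 and 2.02) and at -0.40 on array 4. Epha7 lay toward Cy3, with -4.40, -0.98, -1.49 and -1.08, and a mean of -1.99 (adjusted p = 0.190, limma). The value on array 1 stood apart from the other 3, and the mean without it was -1.18. The other 2 Epha7 probes gave means of -0.35 and -0.20, each with both signs over the arrays.

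**Figure D2:**
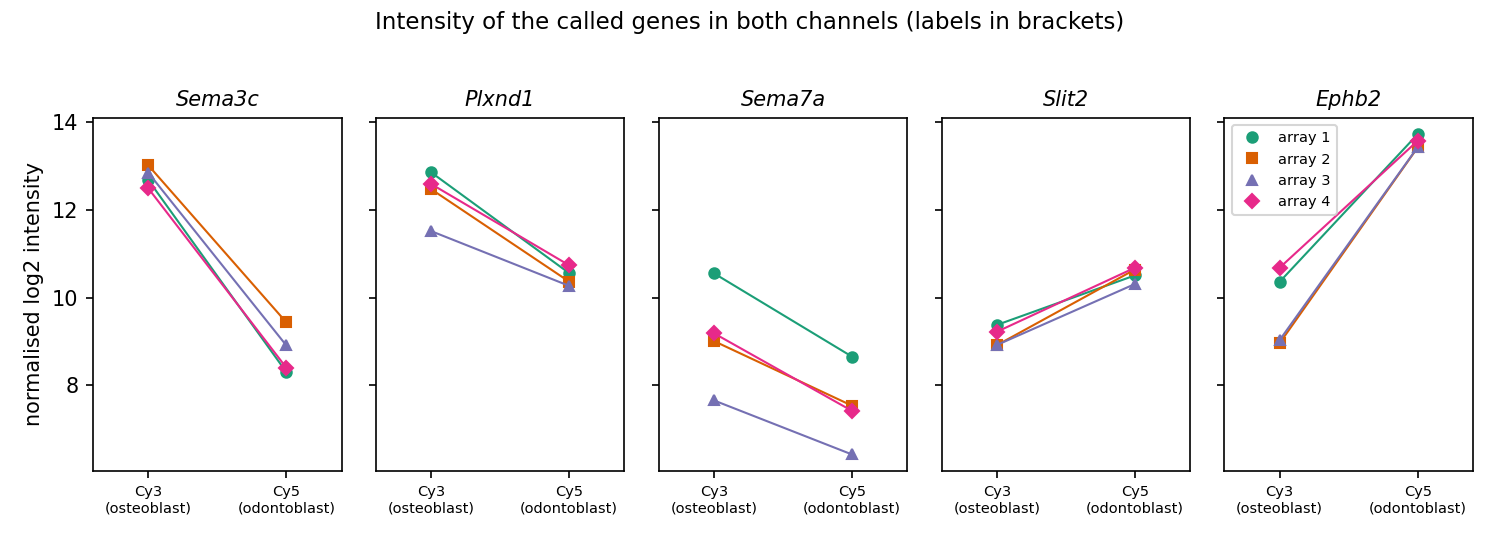
For the 5 genes that passed the test, the normalized log2 intensity is plotted for the Cy5 and the Cy3 channel of each of the 4 arrays, with a line joining the channels of an array. All lines of a gene slope the same way, and the channels do not overlap for Sema3c, Plxnd1, Slit2 and Ephb2.

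Several genes had more than 1 probe, and these did not always give the same ratio. Of the 65 genes, 21 had at least 2 probes that passed the filter. Tested one by one, 3 member probes passed toward Cy5 and 4 toward Cy3, against 0.999% and 0.624% of all 44239 probes kept. The brightest probe stood for its gene. Plxna2 was the case in which probes lay on opposite sides of 0 by more than 0.5: the brighter probe, placed on chromosome 13 in the files, gave -0.62 (adjusted p = 0.183, limma), and the other, on chromosome 1, gave 1.35. RefSeq places the gene on the chromosome of the other probe, so the Plxna2 value is uncertain. It was the 1 member probe of 96 that the files place on another chromosome than RefSeq does. Sema6d, a transmembrane semaphorin, had -0.68 on its brightest probe and -2.25 on the other, and Ephb6, an Eph receptor without kinase activity, had 0.06 and -1.03. Exon and intron positions of the probes were not analysed here.

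**Figure D3:**
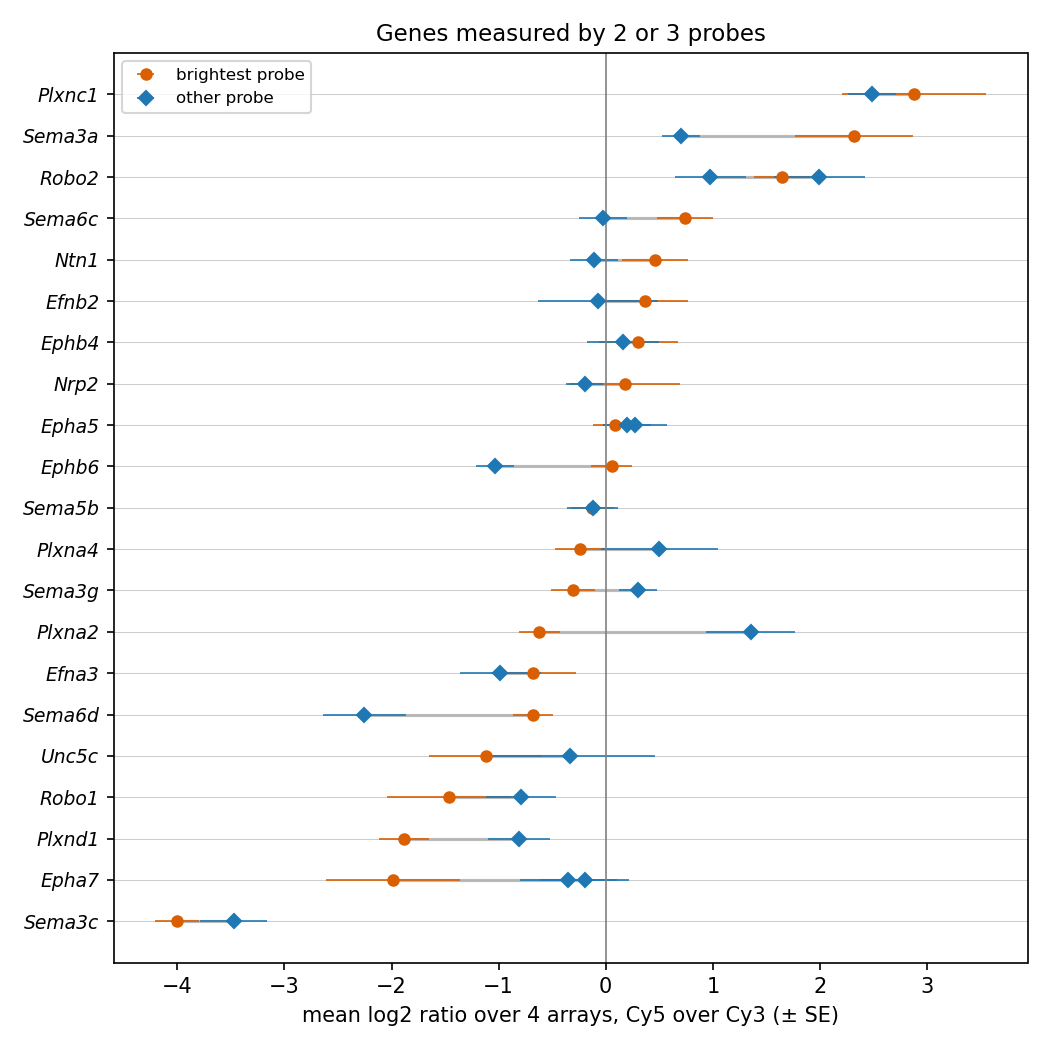
Each point is the mean log2 ratio of Cy5 over Cy3 over 4 arrays for 1 probe, for the 21 genes with at least 2 probes that passed the filter. The bars are SE. Both probes of Sema3c (-4.0 and -3.47) and of Plxnc1 (2.88 and 2.48) lie together, and those of Plxna2 (-0.62 and 1.35) lie on both sides of 0.

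The promoters of the members were read from RefSeq (GRCm38.p6) as the 250 bases before each start site. A window was found for 59 of the 68 genes, 75 windows in all, with a median GC content of 64.4%, against 52.4% over all 32851 windows. The GC box (GGGCGG, searched on both strands) was in 53 of the 75 windows, against 32.7% of all windows. The TATA motif (TATAAA, both strands) was in 2, against 12.4%. The RUNX core (TGTGGT, both strands) was in 9 of them, against 14% of all windows, and the homeobox core (TAATTG, both strands) was in 3, against 7.17%. None of these motifs contains another, and a match is a description of the window, not of binding.

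The windows of Sema3c and Slit2 are shown because these genes are the secreted ligands that passed, one in each direction. Capitals mark GC boxes on either strand and, in Slit2, the TATA motif. Sema3c had 3 GC boxes in its window and a GC content of 78.4%, and Slit2 had 3 GC boxes and 69.6%.
Sema3c, chr5:17574566-17574815, + strand: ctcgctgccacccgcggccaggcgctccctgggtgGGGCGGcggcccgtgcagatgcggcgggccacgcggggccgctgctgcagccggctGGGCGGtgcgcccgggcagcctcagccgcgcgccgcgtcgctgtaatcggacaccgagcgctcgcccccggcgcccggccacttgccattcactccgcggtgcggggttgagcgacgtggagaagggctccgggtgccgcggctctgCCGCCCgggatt
Slit2, chr5:47982905-47983154, + strand: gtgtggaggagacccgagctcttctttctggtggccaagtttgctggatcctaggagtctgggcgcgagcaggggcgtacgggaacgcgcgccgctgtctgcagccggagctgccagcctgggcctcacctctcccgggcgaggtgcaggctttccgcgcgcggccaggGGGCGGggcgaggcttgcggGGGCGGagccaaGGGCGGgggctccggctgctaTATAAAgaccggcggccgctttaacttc

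Other genes of these pathways were taken from lists of co-receptors, adaptors and cytoskeletal effectors. Of the 119 listed genes 113 were measured, with a median log2 ratio of 0.06. The test was passed by 4 of them, 2 in each direction, against 1.66% of all features (1.01% toward Cy5 and 0.653% toward Cy3). With median centring the split was 13 toward Cy5 and 3 toward Cy3, against 5.63% and 1.07% of all features. Flrt3, a membrane protein that binds Unc5 receptors and Robo1, was higher in Cy3 at -1.94 (adjusted p = 0.0379, limma). Srgap3, a GTPase-activating protein that binds Robo receptors, was higher in Cy3 at -1.80 (adjusted p = 0.0211, limma). Chn2, a chimaerin that acts on Rac, was higher in Cy5 at 1.55 (adjusted p = 0.0470, limma).

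Ablim1, an actin-binding LIM protein, was higher in Cy5 with 4.97, 5.13, 4.77 and 1.81. Arrays 1 to 3 were close together and array 4 was much lower, and the mean was 4.17 ± 0.61 (SE, n = 4; adjusted p = 0.0470, limma). None of the 36 measured partners of semaphorins and plexins passed. Itgb1, the integrin that binds Sema7a, was at -0.73, and did not pass. Among the 2 brightest uncalled genes of each list, Itsn1 was at 0.87, Mcam at 0.59, Srgap2 at -0.52, Cfl1 at -0.44 and Enah at 0.04. Chn1, a chimaerin like Chn2 and chosen after its value was seen, was at -2.85 (adjusted p = 0.0503, limma) and did not pass. No value is given for the netrin receptor Dcc, because the files place its probe on a different chromosome from the one RefSeq gives for the gene.

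Osteoclast genes (8 of 10 measured, median 0.21) and pericyte and smooth muscle genes (9 of 10 measured, median 0.17) were not called in either channel. Osteoclast means were above 0 for 5 genes and below 0 for 3, from Mmp9 at -1.36 to Atp6v0d2 at 2.03. Neuron and Schwann cell markers were not called in either channel. Of the neuron list 9 of 11 genes were measured, with a median of 0.13, and of the Schwann cell list 7 of 10, with a median of -0.08. Their summed intensities overlapped between the channels: 75030 to 93173 in Cy5 and 68630 to 97779 in Cy3 for neurons, and 1876 to 3981 in Cy5 and 1985 to 4637 in Cy3 for Schwann cells. The brightest genes in the neuron sum were Snap25 (0.16) and Elavl4 (-0.38), so that sum says little about the dimmer genes of the list.

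Genes of 3 other cell type lists were called. Higher in Cy5, 5 of 10 fibroblast and periosteum genes and 3 of 10 cartilage genes passed, with medians of 2.51 and 1.5. All 10 cartilage means were above 0. In the fibroblast and periosteum list 8 means were above 0 and 2 below. Those below were Postn (-1.62) and Pdgfra (-1.05), toward Cy3 on every array but not called. The cartilage sum was 45434 to 217766 in Cy5 and 4308 to 7974 in Cy3, and the fibroblast and periosteum sum was 199795 to 275081 in Cy5 and 62647 to 222979 in Cy3. Higher in Cy3, 2 of 8 measured dental epithelium genes passed (Ambn and Odam), with a median of -0.86 and a sum of 2203 to 3183 in Cy5 and 6787 to 13595 in Cy3. Of these 8 means, 7 were below 0 and 1 above. Uncalled were Enam (-1.58), Perp (-1.65), Krt5 (-0.14), Krt14 (-0.10), Epcam (-0.03) and Amelx (0.26). Col2a1, one of the called cartilage genes, was well above background in Cy3 on 1 of the 4 arrays. Dpt, Chad, Matn1 and Sox9 were well above background on 3 arrays in Cy3, Odam on 3 in Cy5, and the other measured markers of these lists in each channel of each array. Their part in the ratios of Sema3c, Sema7a, Plxnd1, Slit2 and Ephb2 was not tested.

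Depth on an array is its signal over background, and here 75.5 to 85.2% of probes were well above background in Cy5 and 67.8 to 80.9% in Cy3. Of the 65 members, 54 exceeded background clearly in each channel of each array. Array 3 had the widest ratios over all features, with an SD of 1.21 against 0.756 to 0.943 on the others. The highest ratio was on array 3 for 23 of the 65 members, against 28.9% of all features. The lowest ratio was there for 16 members, against 34.8% of all features. Sema3c and Ephb2 passed under all 11 alternatives that kept the 4 arrays, Sema7a under each of the 10 in which it was tested, Slit2 under 9 and Plxnd1 under 8. No member passed without array 1, 2 or 4, and without array 3 Sema3c, Ephb2 and Plxnd1 did, beside 0.664% of all features (0.391% toward Cy5 and 0.273% toward Cy3).

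**Figure D4:**
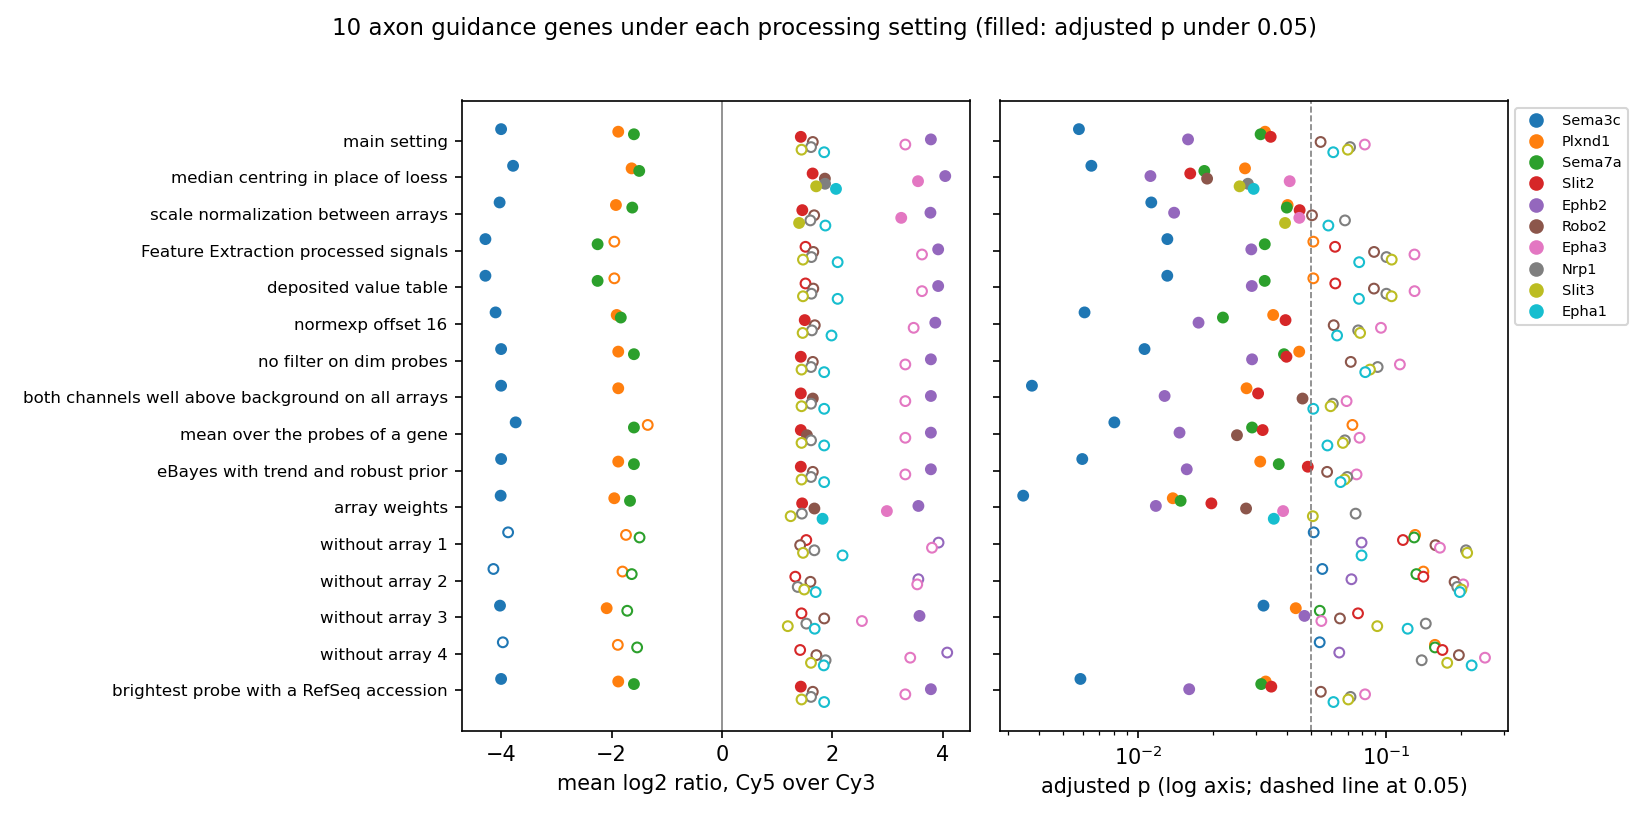
The mean log2 ratio of Cy5 over Cy3 and the adjusted p (limma, log axis) are plotted for 10 axon guidance genes under the main processing and its 15 alternatives, filled where the adjusted p was under 0.05. The means of all 10 genes keep their side of 0, and Sema3c and Ephb2 are filled in every setting that keeps the 4 arrays.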

How the data were processed

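Gene expression was measured on 4 two-colour Agilent arrays of 1 group. The deposited scanner files, made with Agilent Feature Extraction 10.7.3.1 per the file headers, hold spot intensity on a linear scale, not yet normalized between channels. The deposited value table holds log10 ratios: 99.3 to 99.4% of its probes lay within 0.0001 of the scanner files' log10 ratio of Cy5 over Cy3, and each array's median in it was 0.

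Signals were background-corrected in limma 3.58.1 (R 4.3.3; normexp, offset 50, on mean signal and median local background) and loess-normalized within arrays, with control spots at weight 0. Outlier spots were set to missing (949 values over all arrays, none of a member), and no spot was saturated. Spots of a probe were averaged, probes were kept where 1 channel stood well above background on 3 or more of the 4 arrays (44239 of 55681), and the brightest probe stood for a gene. The mean ratio was tested against 0 (lmFit, eBayes, two-sided, Benjamini-Hochberg over 37375 features, 19401 of them named genes). Member probes were matched to RefSeq by accession (86) or current symbol (10). The fit was tested on simulated data. With 4 arrays, their number limits the precision.

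Named genes were all called members. Also named were the 8 uncalled members with the largest mean in each direction among those of 1 sign on all arrays. Genes whose probes differ in sign beyond 0.5, called pathway genes and the brightest 2 uncalled of each pathway list were added. Of the last, Pdzrn3, Dpysl5 and Pak4 are not described here. Sema3d, Nrp2, Plxna4, Plxnb2, Slit3, Robo4, Unc5c, Efnb1, Efnb2, Efnb3, Epha4, Sema6d and Ephb6 were chosen for mention once their values had been seen. Uncalled markers of other cell types, and Sp7, Alpl and Bglap, were named in the same way. The members and lists were chosen with earlier results of these data known. Alternatives covered the background correction, normalization, filter, probe rule, fit and each array left out.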

Additional observations from a re-analysis of the deposited data

Results flagged for a closer look

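Epha7 on array 1 stood apart from the other arrays. Its log2 ratio of Cy5 over Cy3 there was -4.40, and the other 3 arrays lay between -1.49 and -0.98, so the gap to its nearest neighbour was 0.852 of the whole range, above Dixon's critical value for 4 samples. It was the 1 of 22 named members with such a gap, a rule that chance meets in about 1 of 20 groups and that 6.45% of all features met.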

How the results depend on the processing

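The counts of called genes moved more than their directions. Members higher in Cy5 numbered 2, and 12 with median centring, 4 with scale normalization between arrays (1.11% of all features), 5 with array weights (1.73%), and 1 with the Feature Extraction processed signals or the deposited value table (0.639% each). Leaving out an array gave 0 to 1 toward Cy5 and 0 to 2 toward Cy3, beside at most 0.391% and 0.273% of all features. Without array 1 and without array 2 no feature at all passed (limma). At an unadjusted p under 0.05, 27 and 23 members were counted there, beside 5152 and 5692 of the 37375 features. Without array 4, 35 features passed and no member. There 24 members had an unadjusted p under 0.05, beside 4898 of the 37375 features. For the pathway genes, brackets give the share of all features that passed in the same direction and setting. Those higher in Cy5 numbered 2 (1.01%), and 13 with median centring (5.63%) and 4 with scale normalization (1.11%). They numbered 1 with offset 16 (0.91%), with both channels required above background (1.14%) or with a trended robust prior (1.11%). With no filter (0.596%), processed signals or the value table (0.639% each) they numbered 0. Pathway genes higher in Cy3 numbered 2 (0.653%), and 4 with array weights (1.13%). With no filter (0.391%), processed signals or the value table (0.439% each) they numbered 1. Leaving out an array gave 0 to 1 pathway genes toward Cy5 and 0 toward Cy3, beside at most 0.391% and 0.273% of all features. The cause of these moves was not tested. Of 22 named members, Plxna2 alone turned sign in any of the 15 alternatives: its mean was 0.37 averaged over probes and 1.35 on its brightest probe with a RefSeq accession, an alternative chosen after seeing the data. Plxnd1 lost its call with the processed signals (adjusted p = 0.0509, limma) and over probes (0.0732), and Slit2 with the processed signals (0.0623). Without 1 array the adjusted p ran from 0.0321 to 0.0554 for Sema3c and from 0.0469 to 0.0797 for Ephb2 (limma). No paired analysis was possible because there is 1 group and the ratio within an array is already the paired difference. Signal over background limits 11 of the 65 members, which were not well above background in some channel on some array, among them Sema7a and Robo1.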

Other observations

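Several members had opposite signs on different arrays, and they are given here as values chosen after they were seen. Plxna1, a co-receptor for class 3 and class 6 semaphorins, had log2 ratios of Cy5 over Cy3 of -0.78, -1.59 and -1.51 on arrays 1, 2 and 4 and 1.66 on array 3. Plxnb1, the receptor for Sema4d, had 3.08 and 1.90 on arrays 3 and 4 and 0.51 and -0.56 on arrays 1 and 2, while Sema4d itself ran from -1.40 to 0.84. Ntn3 had 3.09 and 1.77 on arrays 1 and 3 and -0.75 and -0.35 on arrays 2 and 4. Epha2 had 1.08 on array 1 and between -1.58 and -0.57 on the others. Of the 65 measured genes, 34 had both signs over the 4 arrays. The other 31 had 1 sign on every array, against 30.5% of all features.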
